A study of Mus musculus with 7 samples.

Results

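The circadian clock genes examined in these forebrain libraries were *Arntl*, *Clock*, *Npas2*, *Per1*, *Per2*, *Per3*, *Ciart*, *Nr1d1*, *Nr1d2* and *Dbp*, chosen by gene symbol. They are 10 of the 47729 genes in the count table, and all 10 were among the 19684 genes with enough counts to be tested. The molecular clock is a feedback loop in which the activators ARNTL (BMAL1) and CLOCK, or the CLOCK relative NPAS2 in forebrain, bind E-boxes and drive the period genes and other repressors of their own activity. A stabilising loop of the nuclear receptors NR1D1 and NR1D2 (REV-ERB) represses *Arntl*, and DBP with its relatives carries the rhythm to D-box genes. In the brain the suprachiasmatic nucleus sets the phase, but most forebrain cells run the same loop, so levels of these transcripts depend on the hour of the day.

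Forebrain RNA was taken at postnatal day 15 from mice of the strain F1(C57BL/6 X 129Sv) that carried the *Lhx6tm2Vpa* mutant allele. Control mice were heterozygous (*Lhx6+/-*), so they too lack 1 copy of the gene, and mutant mice were null (*Lhx6-/-*) throughout the body. *Lhx6* encodes a transcription factor of interneurons born in the medial ganglionic eminence, and the study used these samples to ask which forebrain transcripts differ when it is lost. There were 4 control and 3 mutant libraries, each made from a pool of 2 animals, and they are called here by genotype and by the library number in the column headers, namely controls 2, 3, 10 and 11 and mutants 5, 12 and 13. The hour of collection is not given in the sources used here, and its part in any value was not tested.

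Library totals ran from 32556304 to 38069151 expected counts. *Lhx6* itself had 615, 522, 476 and 522 normalized counts in controls 2, 3, 10 and 11 and 70.9, 76.6 and 70.1 in mutants 5, 12 and 13, so every library went with its genotype label. The library numbers fall into a low run (2, 3 and 5) and a high run (10 to 13), each with both genotypes, and the first principal component of all tested genes, with 39.6% of the variance, separated the runs. What the runs stand for is not given in the sources used here, so clock genes are given below both over all libraries and within each run. Differences within a run were taken as log2 ratios of mean normalized counts. Calls within a run came from separate edgeR fits, whose estimates differ somewhat from these ratios. The telencephalic markers *Slc17a7* and *Gad1* were abundant in every library, at 62495 to 90141 and 6727 to 13043 normalized counts.

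Among all tested genes 954 (4.85%) differed between the genotypes, 585 (2.97%) higher and 369 (1.87%) lower in mutants (edgeR quasi-likelihood F-test, Benjamini-Hochberg adjusted p of 0.05 or less). Of the 10 clock genes, 1 was called, *Npas2*, which was higher in mutants, and none was called lower. The median log2 difference of the clock genes was -0.18, with 3 above 0 and 7 below it, while the median over all tested genes was -0.013. The genotypes did not overlap for 1 of the 10 clock genes, against 19.7% of all tested genes, and 2 of the 10 (*Npas2* and *Ciart*) had an unadjusted p of 0.05 or less in edgeR, against 18.2% of all tested genes. With 10 genes, shares of this size are near the background.

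**Figure D1:**
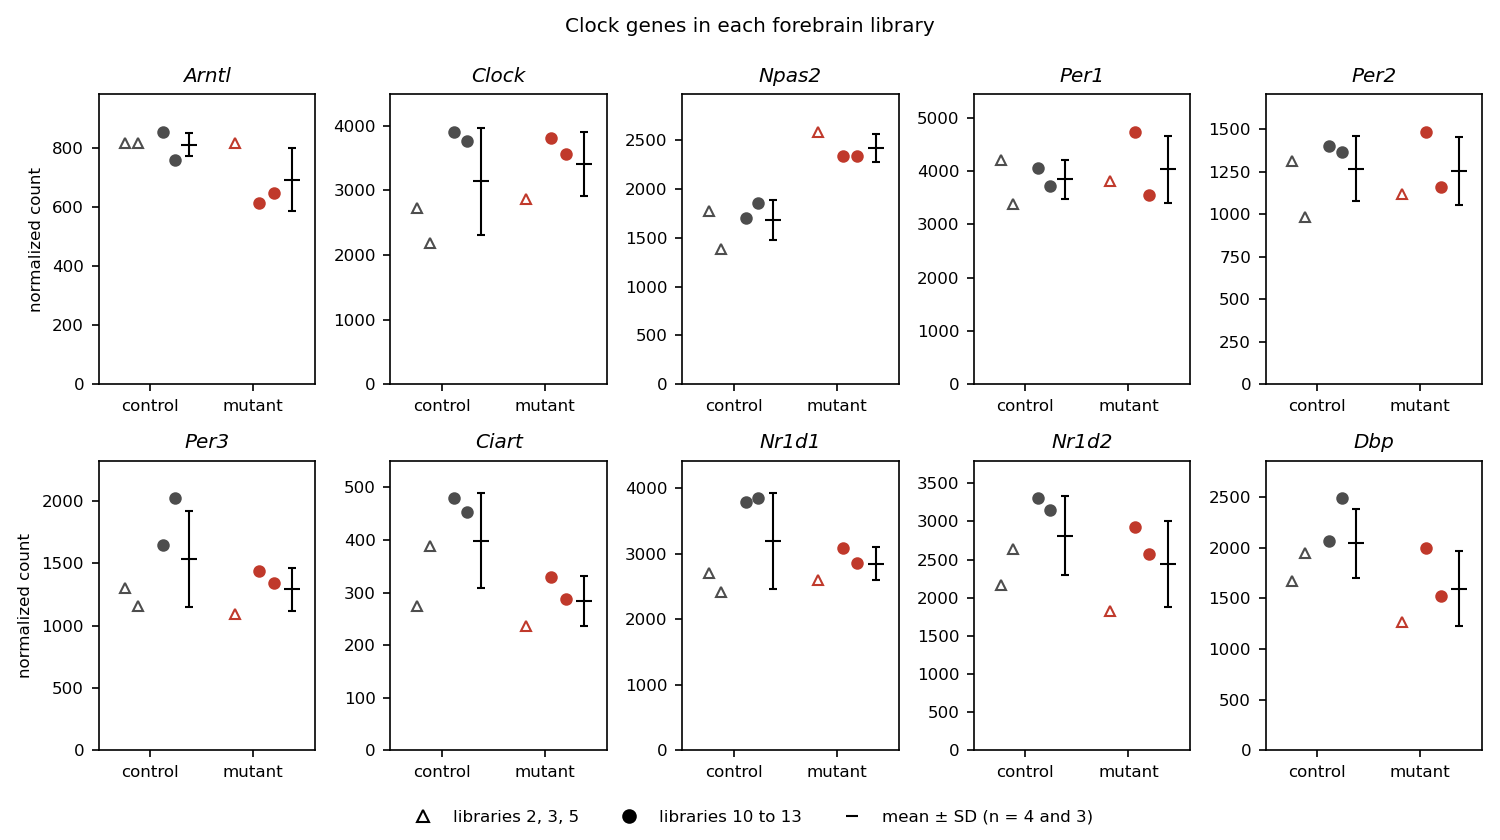
Normalized counts (y axis, from 0) of the 10 clock genes in each forebrain library by genotype, with triangles for libraries 2, 3 and 5, circles for libraries 10 to 13, and bars for the mean ± SD of 4 control and 3 mutant libraries. For *Npas2* the 3 mutant libraries, at 2335 to 2583, lie above every control, and for the other genes the genotypes overlap.

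The transcripts were not equally abundant. On the scale of CPM per kilobase of exon, the mean control level ran from 34.2 ± 5.67 (SD, n = 4) for *Dbp* and 29.1 ± 6.68 for *Nr1d1*, through 19.1 ± 1.84 for *Per1*, 15.8 ± 2.89 for *Nr1d2* and 9.85 ± 1.203 for *Npas2*, to 4.95 ± 1.12 for *Ciart* and 4.47 ± 1.12 for *Per3*. *Arntl* (7.83 ± 0.383), *Clock* (6.42 ± 1.70) and *Per2* (6.07 ± 0.914) lay between these. Control libraries of neighbours in this order overlapped for every pair except *Nr1d1* over *Per1* and *Nr1d2* over *Npas2*. Thus the output factor and the nuclear receptor *Nr1d1* led the list, and the activator *Npas2* stood in the middle. The activators *Arntl* and *Clock* as well as the least abundant repressors sat at the low end. The ratio of the highest to the lowest control level was 7.64, and it was 5.92 with the longest transcript as the length, which put *Clock* above *Arntl*, and *Per3* above both *Per2* and *Ciart*.

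**Figure D2:**
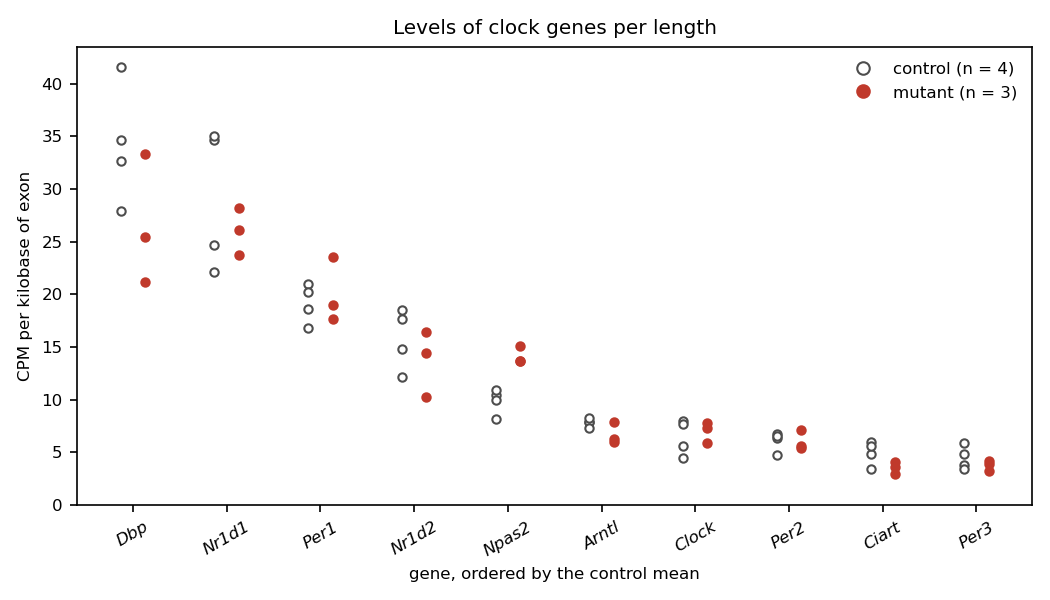
Level of each clock gene per length (y axis, CPM per kilobase of exon) in the 4 control libraries (open points) and 3 mutant libraries (red points), ordered along the x axis by the control mean. *Dbp* and *Nr1d1* lie highest, with single libraries between 21.2 and 41.5, and *Ciart* and *Per3* lowest, between 2.93 and 5.94.

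The activators differed among themselves. *Npas2* (ENSMUSG00000026077, chr1:39193731-39363236, plus strand, GRCm38) encodes a partner of ARNTL that can take the place of CLOCK and is prominent in forebrain neurons. It had 1779, 1387, 1704 and 1854 normalized counts in controls 2, 3, 10 and 11 and 2583, 2335 and 2339 in mutants 5, 12 and 13. All 3 mutant libraries lay above all 4 controls. The means were 1681 ± 205 (SD, n = 4) and 2419 ± 142 (SD, n = 3), a difference of 0.53 ± 0.106 (log2, SE) or 1.44-fold (edgeR, adjusted p = 0.0280). In these bulk samples, more cells of a type and more RNA per cell cannot be told apart.

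*Npas2* was higher in mutants in both runs. The log2 ratio of mean normalized counts was 0.71 in libraries 2, 3 and 5 and 0.39 in libraries 10 to 13. In the refits under all alternatives its estimated difference stayed between 0.40 and 0.72. Its call was lost in edgeR without control 10 (adjusted p = 0.0735), mutant 5 (0.0877), mutant 12 (0.0845) or mutant 13 (0.101), and in libraries 2, 3 and 5 alone (0.0671). DESeq2, which called 8.79% of all genes, gave it an adjusted p of 0.000374, and the adjusted p ranged from 0.000374 to 0.101 over all alternatives.

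*Arntl* (chr7:113207465-113314122, plus strand) encodes the obligate partner of CLOCK and NPAS2. Its normalized counts were 815, 817, 853 and 757 in the controls and 815, 615 and 647 in mutants 5, 12 and 13. Mutant 5 matched the controls, while mutants 12 and 13 lay below all of them. The difference was -0.23 ± 0.116 (log2, SE) and was not called (edgeR, adjusted p = 0.355). Within the runs the log2 ratio of mean normalized counts was -0.0017 in libraries 2, 3 and 5 and -0.35 in libraries 10 to 13. The separate edgeR fits of these libraries gave 0.0072 and -0.34. Only in the fit of libraries 10 to 13, where edgeR called 10.3% of genes, was *Arntl* called lower (adjusted p = 0.0418). Whether the genotype difference itself differs between runs was not tested.

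The *Arntl* promoter is a textbook target of the REV-ERB and ROR receptors, which bind the letters TAGGTCA or TGGGTCA. In the RefSeq windows around gene starts (GRCm38.p6, 32851 windows over all genes, searched on both strands), TAGGTCA was found in 2.606% and TGGGTCA in 3.979%. One of the *Arntl* windows held TAGGTCA at position 30 after the start, on the strand of the gene, as the capitals mark in this stretch at chr7:113207531-113207557 (plus strand):
Arntl: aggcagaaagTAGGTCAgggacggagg

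*Clock* (chr5:76209868-76304792, minus strand), the founding activator, had 2723, 2180, 3903 and 3762 normalized counts in the controls and 2864, 3819 and 3561 in the mutants. The libraries parted by run and not by genotype, with 2180 to 2864 in libraries 2, 3 and 5 and 3561 to 3903 in libraries 10 to 13. The genotype difference was 0.12 ± 0.203 (log2, SE; edgeR, adjusted p = 0.830), with 0.22 in the low run and -0.054 in the high run.

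The repressors of the core loop showed no call. *Per1* (chr11:69095217-69109960, plus strand) is the period gene that light, glucocorticoids and neuronal activity induce acutely. It had 4216, 3378, 4049 and 3726 normalized counts in the controls and 3809, 4729 and 3549 in the mutants. The genotypes overlapped throughout, with mutant 12 the highest of all libraries, and the difference was 0.068 ± 0.120 (log2, SE; edgeR, adjusted p = 0.837). Within the low and high runs the *Per1* difference was 0.0045 and 0.090. *Per2* (chr1:91415982-91459324, minus strand), a core repressor, had 1316, 986, 1403 and 1364 normalized counts in the controls and 1117, 1483 and 1162 in the mutants. As for *Per1*, control 3 was the lowest library and mutant 12 the highest. The *Per2* difference was -0.015 ± 0.146 (log2, SE; edgeR, adjusted p = 0.976), the smallest among the 10 genes, and its sign turned under several alternatives. Within the low and high runs it was -0.043 and -0.065.

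*Per3* (chr4:151003652-151044665, minus strand) is a period gene that the core loop can run without. It had 1297, 1158, 1647 and 2019 normalized counts in the controls and 1097, 1435 and 1342 in mutants 5, 12 and 13. The highest libraries were the controls of the high run and the lowest was mutant 5. The difference was -0.25 ± 0.189 (log2, SE; edgeR, adjusted p = 0.576) over all libraries. It was -0.16 in the low run and -0.40 in the high run, where the edgeR fit gave -0.39 and a call (adjusted p = 0.0449).

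*Ciart* (ENSMUSG00000038550, chr3:95878503-95882251, minus strand), also known as CHRONO, encodes a repressor that binds the activator complex. It had 275, 388, 479 and 452 normalized counts in the controls and 236, 330.2 and 287 in mutants 5, 12 and 13. Control 2 fell among the mutants, and the other controls lay above all of them. The means were 398 ± 90.6 (SD, n = 4) and 284 ± 47.3 (SD, n = 3), a difference of -0.49 ± 0.204 (log2, SE), which passed an unadjusted p (0.0415) but not the adjusted one (edgeR, adjusted p = 0.248). Within each run the mutants were lower by a similar amount, at -0.49 and -0.59. With the run as a covariate, a fit in which edgeR called 11.2% of all genes, *Ciart* was called lower at -0.55 ± 0.131 (adjusted p = 0.0303), and in libraries 10 to 13 alone the adjusted p was 0.0130.

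E-boxes (CACGTG, a palindrome) and D-boxes (TTATGTAA) are the sites through which the loop drives these repressors. CACGTG occurred in 7.15% of all RefSeq windows, and 3 or more copies in 0.0883%. The *Ciart* window held 3 copies, at -116, -58 and -44 from the start. *Per1* held a single copy at -166, and the other clock genes with a window held none. TTATGTAA occurred in 0.938% of all windows and in 2 or more copies in 0.0213%, and the *Per3* window held 2 copies, at -205 and -158. The variant TTACGTAA (0.119% of windows) was found in no clock gene, and the noncanonical E-box CACGTT (4.685%) was found in *Nr1d1*, on the opposite strand at -28. The cAMP response element TGACGTCA (1.79%) was not found in the clock genes' windows. Windows were at hand for 9 of the 10 genes. The stretches before the start of *Ciart* (chr3:95882229-95882478, minus strand) and *Per3* (chr4:151044666-151044915, minus strand), and the sites of *Per1* (chr11:69098773-69098798, plus strand) and *Nr1d1* (chr11:98775390-98775415, minus strand), are printed in the direction of the gene because they show the spacing of these elements, with the motif letters in capitals:
Ciart: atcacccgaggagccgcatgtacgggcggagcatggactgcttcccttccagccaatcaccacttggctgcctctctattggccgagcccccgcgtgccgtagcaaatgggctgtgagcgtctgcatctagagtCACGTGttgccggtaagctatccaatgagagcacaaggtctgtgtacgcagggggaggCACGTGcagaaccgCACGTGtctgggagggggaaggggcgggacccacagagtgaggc
Per3: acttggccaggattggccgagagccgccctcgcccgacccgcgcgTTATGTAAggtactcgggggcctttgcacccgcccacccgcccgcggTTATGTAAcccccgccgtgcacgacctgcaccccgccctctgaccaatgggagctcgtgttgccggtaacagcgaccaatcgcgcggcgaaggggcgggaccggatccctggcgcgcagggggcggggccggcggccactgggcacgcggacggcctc
Per1: cacccaagtcCACGTGcagggatgtg
Nr1d1: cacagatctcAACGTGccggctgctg

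The *Per1* site lies inside the annotated span of the gene, as does the *Arntl* site above. A match to these letters is a description of the window and not a site shown to be bound.

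The nuclear receptors of the stabilising loop overlapped between the genotypes. *Nr1d1* (chr11:98767932-98775333, minus strand) encodes REV-ERB alpha, the repressor of *Arntl*. It had 2709, 2423, 3794 and 3842 normalized counts in the controls and 2597, 3087 and 2862 in the mutants. The 2 controls of the high run stood above all other libraries, and the mutants stood among the rest. The difference was -0.16 ± 0.170 (log2, SE; edgeR, adjusted p = 0.699) over all libraries. It was 0.017 in the low run and -0.36 in the high run, where the edgeR fit gave -0.35 and a call (adjusted p = 0.0130). Exons of *Nr1d1* overlap those of the antisense gene *Thra*, which encodes thyroid hormone receptor alpha, over 8.55% of their length, and reads there cannot be told apart because the library kit does not mark strand. *Thra*, named only for this overlap, was lower in mutants, at 30972 ± 3500.2 (SD, n = 4) and 21047 ± 1324 (SD, n = 3) normalized counts (-0.56, edgeR, adjusted p = 0.0222).

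*Nr1d2* (chr14:18204054-18239127, minus strand) encodes REV-ERB beta, which acts alongside REV-ERB alpha. It had 2170.4, 2640.1, 3301 and 3150 normalized counts in the controls and 1832, 2927 and 2575 in the mutants. The genotypes overlapped, and mutant 5 was the lowest library. The difference was -0.20 ± 0.186 (log2, SE; edgeR, adjusted p = 0.653), with -0.39 in the low run and -0.23 in the high run. With a library left out it ran from -0.35 (without mutant 12) to -0.023 (without mutant 5), so its size rested largely on single libraries.

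*Dbp* (ENSMUSG00000059824, chr7:45705247-45710203, plus strand) encodes a D-box activator and is a direct E-box target. It had 1667, 1950.2, 2069 and 2484 normalized counts in the controls and 1265, 1994 and 1521 in mutants 5, 12 and 13. Mutants 5 and 13 lay below every control, and mutant 12 fell among the controls. The means were 2043 ± 339 (SD, n = 4) and 1594 ± 369.95 (SD, n = 3), and the difference of -0.36 ± 0.175 (log2, SE) was not called (edgeR, adjusted p = 0.332). With a library left out the difference ran from -0.55 (without mutant 12) to -0.21 (without mutant 5) and was never called. It was -0.52 and -0.37 within the low and high runs. With the run as a covariate it was -0.43 ± 0.116 and just passed the threshold (edgeR, adjusted p = 0.0491). Exons of *Dbp* overlap the antisense gene *Sphk2* over 32.1% of their length, so part of its reads cannot be assigned to a strand. *Sphk2*, named only for this overlap, had 1377 to 1585 normalized counts in controls and 1129 to 1276 in mutants (-0.27, edgeR, adjusted p = 0.120).

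**Figure D3:**
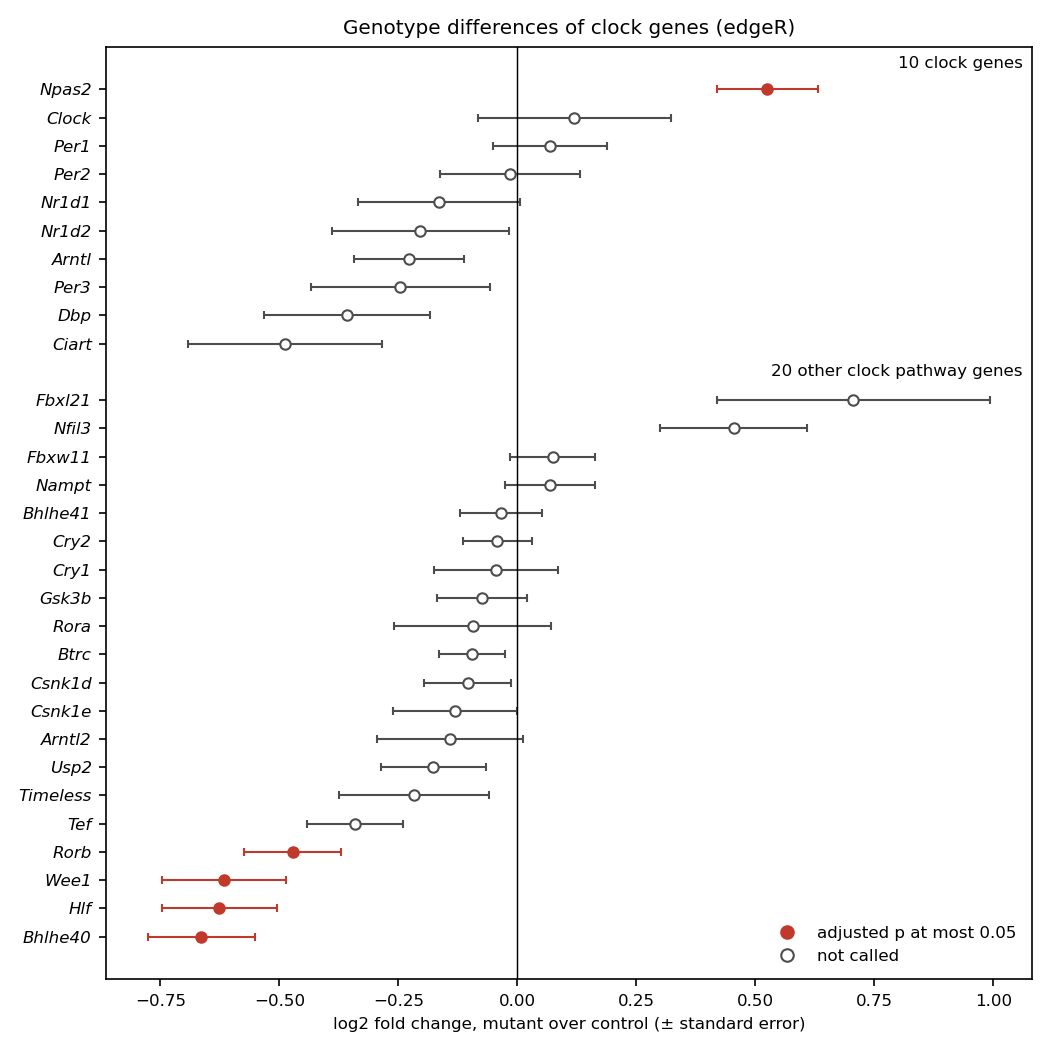
Log2 fold change of mutant over control libraries (x axis, ± SE, edgeR) for the 10 clock genes and the 20 other clock pathway genes, with filled red points for an adjusted p of 0.05 or less. *Npas2*, at 0.53, is the only called gene to the right of 0, and *Bhlhe40*, *Hlf*, *Wee1* and *Rorb*, between -0.66 and -0.47, are called to the left.

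Single libraries differed by run as much as by genotype for several of these genes. For *Clock*, *Per3* and *Nr1d1* the controls of the high run were higher than those of the low run by 0.64, 0.58 and 0.57 (log2). *Clock*, *Nr1d1* and *Per3* were also the 3 of 10 clock genes in which no library of the low run overlapped the high run, against 23% of all tested genes. With the run as a covariate, 3 of 10 clock genes were called (*Npas2*, *Ciart* and *Dbp*), against 11.2% of all tested genes. With libraries 10 to 13 alone, 2 per genotype, 5 of 10 were called (*Arntl*, *Npas2*, *Per3*, *Ciart* and *Nr1d1*), against 10.3%, and with libraries 2, 3 and 5 alone none was, against 2.24%, although the latter fit holds a single mutant library. Thus the number of clock genes called depended on how the run was treated. *Npas2* was higher, and *Ciart* and *Dbp* were lower, within each run. These genes were not alone in this, as *Nr1d2*, *Per3* and *Per2* were also lower within each run and *Per1* was higher. *Arntl* was lower in the high run and at -0.0017 in the low run, and *Clock* and *Nr1d1* changed sign. With the run as a covariate *Nr1d2* was at -0.29 and was not called (edgeR, adjusted p = 0.0720).

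The E-box driven genes *Per1*, *Per2*, *Per3*, *Nr1d1*, *Nr1d2*, *Dbp* and *Ciart* were also set against the activators *Arntl*, *Clock* and *Npas2* in each library. On centred log2 values, the mean of the E-box driven genes minus that of the activators was -0.022, 0.19, 0.17 and 0.24 in controls 2, 3, 10 and 11, and -0.45, 0.051 and -0.19 in mutants 5, 12 and 13. Mutant 5 lay farthest toward high activators and low E-box driven genes, control 11 farthest the other way, and mutant 12 stood within the range of the controls. The activator mean includes *Npas2*, the called gene, and the activators did not move together. In mutant 5 *Npas2* was at 0.40, *Arntl* at 0.11 and *Clock* at -0.16. In mutants 12 and 13 *Arntl* was below its mean, at -0.29 and -0.22, while *Npas2* and *Clock* were above theirs. The comparison is a description of 7 libraries with no test.

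**Figure D4:**
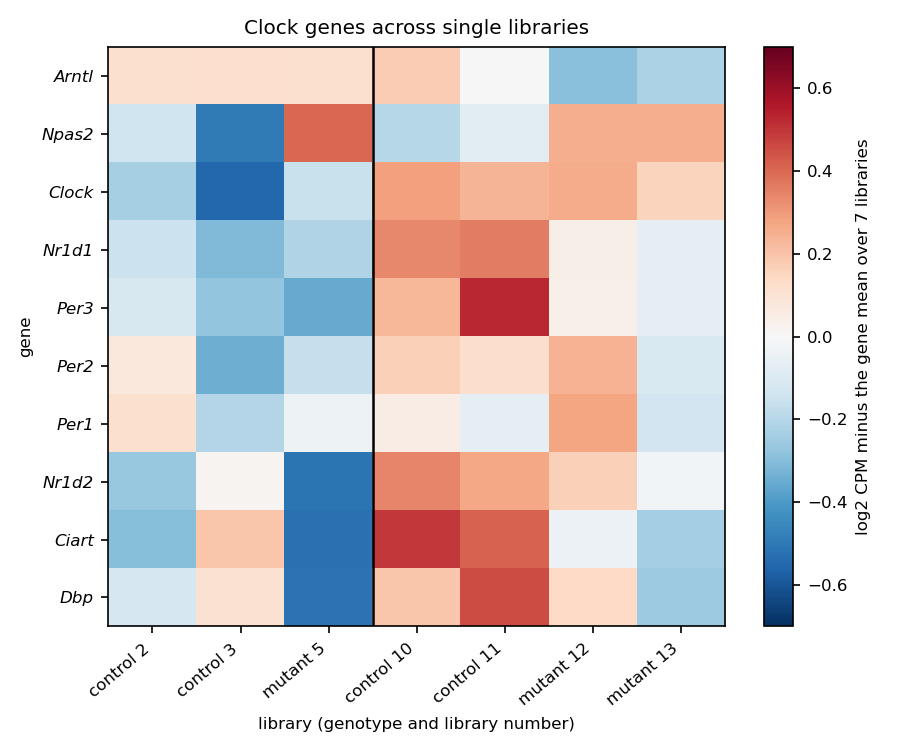
Log2 CPM of each clock gene minus its mean over the 7 libraries (color scale, red above and blue below the mean) for libraries ordered by number, with a line between libraries 2, 3 and 5 and libraries 10 to 13. *Clock*, *Nr1d1* and *Per3* are blue throughout the low run and red in controls 10 and 11, whereas *Npas2* is red in the 3 mutants of both runs and blue in the 4 controls.

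Other genes of the clock pathway were read from the same fit. Of 20 genes (partners of the repressors, ROR receptors, D-box factors, kinases, ubiquitin ligase parts and outputs), 4 were called lower in mutants (*Bhlhe40*, *Hlf*, *Wee1* and *Rorb*) and 0 higher, against 1.87% and 2.97% of all tested genes. DESeq2 called these 4 and *Tef*. The median log2 difference was -0.10, with 4 genes above 0 and 16 below it. The genotypes did not overlap for 6 of the 20 (these 4, *Tef* and *Fbxl21*), against 19.7% of all tested genes.

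The D-box factors are the family of *Dbp*. *Hlf*, a D-box activator like *Dbp*, had 5197, 4646, 5963 and 5727 normalized counts in the controls and 3160.2, 4022 and 3281 in mutants 5, 12 and 13. All mutants lay below all controls, and the difference was -0.63 ± 0.121 (log2, SE; edgeR, adjusted p = 0.0230), with -0.64 and -0.68 in the low and high runs. *Tef*, another such activator, also had all mutants below all controls, at 10079, 10673, 11659 and 11515 in the controls and 7787, 9674 and 8547 in the mutants. Its difference of -0.34 ± 0.100 (log2, SE) was not called over all libraries (edgeR, adjusted p = 0.101), but it was in DESeq2 (0.0205) and with the run as a covariate (edgeR, 0.0109). *Nfil3* encodes E4BP4, the repressor that competes for the same D-boxes. Its normalized counts were 291, 352, 293 and 253 in the controls and 475, 406 and 341 in the mutants, so that control 3 overlapped the mutants. The difference of 0.45 ± 0.154 (log2, SE) was not called over all libraries (edgeR, adjusted p = 0.157) and was called with the run as a covariate (edgeR, adjusted p = 0.0275). The call of *Hlf* was lost without control 10 (edgeR, adjusted p = 0.0633), control 11 (0.0607), mutant 5 (0.0877) or mutant 13 (0.119).

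**Figure D5:**
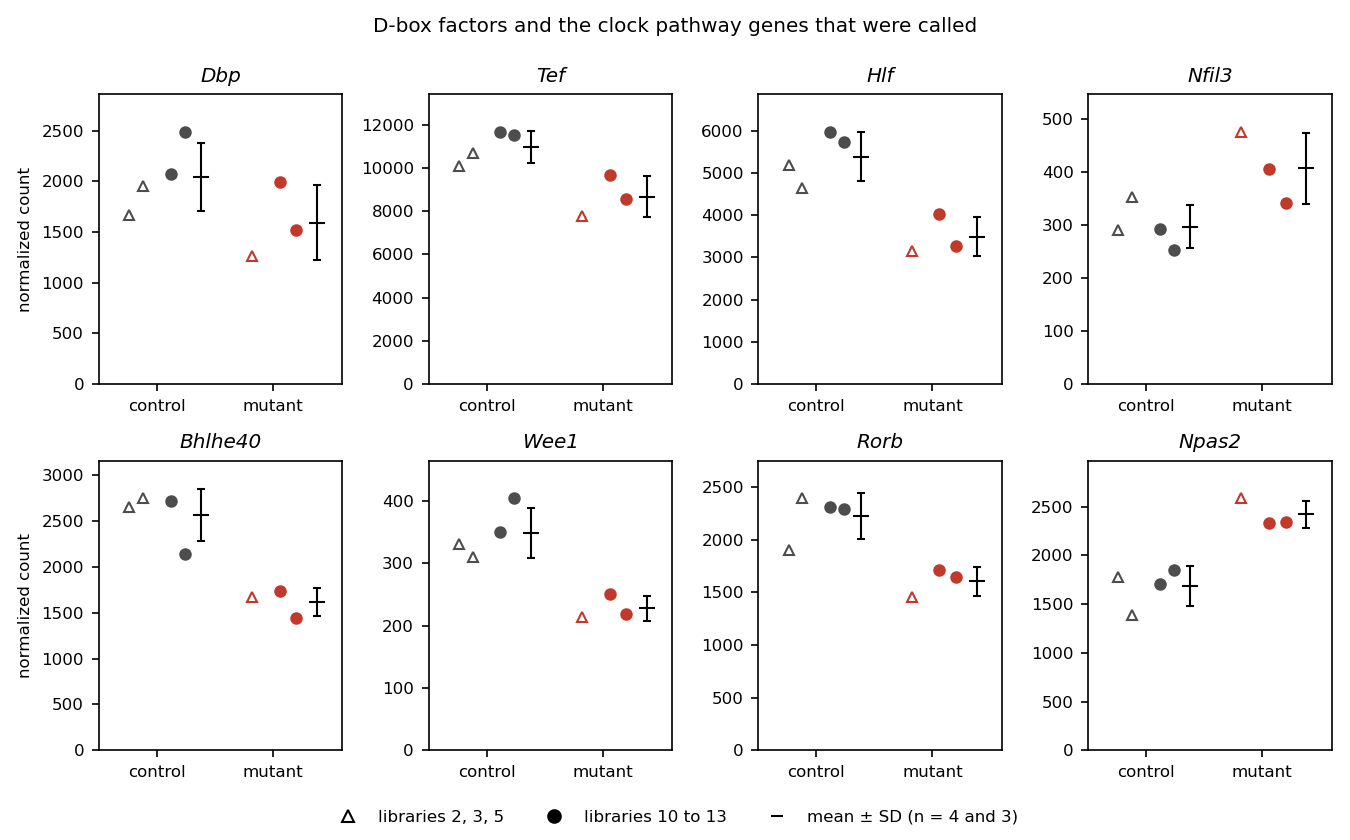
Normalized counts (y axis, from 0) of the D-box factors *Dbp*, *Tef*, *Hlf* and *Nfil3* (upper row) and of *Bhlhe40*, *Wee1*, *Rorb* and *Npas2* (lower row) in each library by genotype, with triangles for libraries 2, 3 and 5, circles for libraries 10 to 13, and bars for the mean ± SD (n = 4 and 3). Mutants of *Hlf* and *Tef* lie below every control, *Dbp* and *Nfil3* overlap, and the genotypes are apart for all 4 genes of the lower row.

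RefSeq windows of these factors held some of the same motifs. Both *Tef* windows held a CACGTG, at -127 and -138, and *Hlf* held the cAMP response element TGACGTCA at -9 from its start. The *Tef* site at chr15:81802536-81802561 (plus strand) and the *Hlf* site at chr11:90390909-90390936 (minus strand) read, with the motif in capitals:
Tef: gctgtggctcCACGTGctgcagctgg
Hlf: gtgcgggcccTGACGTCActcttgtcag

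Outside the D-box family, *Bhlhe40* (DEC1), a repressor that competes with the activators for E-boxes, had 2649, 2743, 2710.4 and 2138 normalized counts in the controls and 1674, 1736 and 1439 in mutants 5, 12 and 13. All mutants lay below all controls, and the difference of -0.66 ± 0.112 (log2, SE; edgeR, adjusted p = 0.0130) had the smallest adjusted p of the 20 genes. Among the fits that left out a library it lost its call only without mutant 13 (edgeR, adjusted p = 0.0742). Its close relative *Bhlhe41* (DEC2) showed -0.034 ± 0.0863 (log2, SE; edgeR, adjusted p = 0.892).

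*Wee1*, a cell cycle kinase gene with E-box control, had 331, 310.3, 350.2 and 403 normalized counts in the controls and 214, 250.5 and 219 in the mutants. *Rorb*, the ROR receptor typical of brain and retina, had 1904, 2392, 2312 and 2295 in the controls and 1453, 1712 and 1649 in the mutants. In both genes all mutants lay below all controls. *Wee1* fell by 0.62 on the log2 scale (edgeR, adjusted p = 0.0330) and *Rorb* fell by 0.47 (adjusted p = 0.0351). Among the fits that left out a library, *Wee1* kept its call only without control 3 (the others gave adjusted p of 0.0600 to 0.159 in edgeR), and *Rorb* only without control 2 (the others gave 0.0577 to 0.143). *Wee1* also lost its call with no filter on low counts (edgeR, adjusted p = 0.0531).

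The cryptochromes, which form the repressor complex with the period proteins, were close between the genotypes. *Cry1* differed by -0.045 ± 0.131 and *Cry2* by -0.042 ± 0.0729 (log2, SE; edgeR, adjusted p = 0.909 and 0.833). Kinases and ubiquitin ligase parts that set the stability of these proteins (*Csnk1d*, *Csnk1e*, *Gsk3b*, *Fbxl21*, *Btrc* and *Fbxw11*) were not called, and 5 of these 6 differed by between -0.13 and 0.074 on the log2 scale. *Fbxl21*, at 55.5 ± 21.5 (SD, n = 4) and 90.7 ± 2.36 (SD, n = 3) normalized counts, was the exception, with a difference of 0.71 ± 0.287 (log2, SE; edgeR, adjusted p = 0.236). Of the remaining genes, *Rora* (-0.094), *Arntl2* (-0.14), *Timeless* (-0.22), *Usp2* (-0.18) and *Nampt* (0.068) were not called in edgeR.

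The genes most like *Dbp* over the 7 libraries by Pearson's r of log2 CPM, among 12627 genes with a mean above 2, were *Usp2* (0.978), *C330006A16Rik* (0.975), *Baiap2* (0.975), *Inpp4a* (0.975) and *Cdkal1* (0.973). *Usp2*, which encodes a deubiquitinase, is itself a clock output from the list above. The genes most like *Arntl* were *Nrip2* (0.971), *Trim27* (0.961), *Pus7* (0.960), *Poli* (0.959) and *D11Wsu47e* (0.955). With 7 points that share genotype, run and depth, r above 0.9 was reached by 123 genes for *Dbp* and 28 for *Arntl*.

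Several marker lists moved with the genotype, and their part in the clock values was not tested. Astrocyte markers summed to 1283 to 1406 CPM in controls and 1920 to 2183 in mutants, and 1 of 5, *Gfap*, was called higher (edgeR, adjusted p = 7.41e-05). Among all tested genes 2.97% were called higher, and the genotypes did not overlap for 19.7%, which is the background for this list and those that follow. Telencephalic markers summed to 2400.3 to 2622 CPM in controls and 2812 to 3369 in mutants, with 0 of 6 called. *Slc17a7* made up most of that sum, and 2 of the 6 went the other way, *Emx1* at -0.46 and *Neurod6* at -0.11 (log2, not called). Markers of the suprachiasmatic nucleus summed to 20.5 to 31.6 CPM in controls and 43.3 to 55.4 in mutants. Most of that sum was *Vip*, which cortical interneurons also express and which was the 1 gene called of 4 tested, higher in mutants (edgeR, adjusted p = 0.0150). The 4 tested genes all had a difference above 0. *Prok2* had 3.84 to 16.1 normalized counts in controls and 29.0 to 34.5 in mutants, with no overlap, and just missed the call (2.12 on the log2 scale, edgeR, adjusted p = 0.0504), and *Avp* had 3.01 to 8.77 and 9.47 to 10.5, also with no overlap (edgeR, adjusted p = 0.280). *Vipr2*, also tested, had 46.1 to 55.6 normalized counts in controls and 52.1 to 67.3 in mutants, which overlapped (edgeR, adjusted p = 0.508). Of the other genes that define the nucleus, *Six6* had 3 counts or fewer in every library, and *Nms* had 0 counts in every control and 3.79 to 9.58 normalized counts in the mutants. *Lhx1*, not tested, overlapped at 1.02 to 6.58 normalized counts in controls and 4.14 to 5.75 in mutants.

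Sums of the lists for other dissected regions overlapped between the genotypes. Thalamic markers summed to 67.4 to 90.5 CPM in controls and 72.4 to 76.2 in mutants, with 0 of 4 called, and cerebellar ones to 18.3 to 25.5 and 16.0 to 19.1, with 0 of 3 called. Choroid plexus markers, at 126 to 269.96 and 61.0 to 207 CPM, and pineal markers, at 0.817 to 1.54 and 0.983 to 1.88 CPM, overlapped too, with 0 of 4 and 0 of 3 called and *Asmt* at 3 counts or fewer in every library. All 4 choroid plexus genes had a difference below 0 (median -0.61, log2), and mutant 5 had the lowest choroid plexus sum. So did all 3 tested cerebellar genes and 3 of 4 thalamic genes. Pineal *Tph1* did not overlap, at 4.02 to 9.15 normalized counts in controls and 13.5 to 23.0 in mutants (edgeR, adjusted p = 0.149).

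Signals that induce *Per1* were read in the same way. Glucocorticoid-induced genes summed to 229.7 to 268 CPM in controls and 273 to 319 in mutants, and 1 of 6, *Fkbp5*, was called higher (edgeR, adjusted p = 0.0197), while the most abundant, *Tsc22d3*, was at -0.28 (log2, not called). Immediate early genes of neuronal activity summed to 546 to 819 CPM in controls and 505 to 941 in mutants, and 2 of 7, *Fosb* and *Npas4*, were called higher (edgeR, adjusted p = 0.0332 and 0.0130), against 2.97% of all tested genes. Among the rest, *Arc* (-0.075), *Egr1* (-0.30) and *Junb* (-0.36) had log2 differences below 0 and were not called. Mutant 12 was the highest library for the sum of the immediate early genes as well as for *Per1* and *Per2*. Mutant 12 was also the highest for the glucocorticoid-induced (319 CPM), telencephalic (3369 CPM) and suprachiasmatic (55.4 CPM) sums. A link of any of these sums to *Per1* or *Per2* was not tested. *Fkbp5*, *Fosb* and *Npas4* are named for their calls, after their values were seen, as are the genes that go against their list.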

How the data were processed

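Forebrain RNA (0.5 ug in the sample records, 1 ug in the study's methods) was made into libraries with the TruSeq RNA Sample Prep Kit, which does not mark strand, and read as 36 bp single ends. The authors trimmed reads with cutadapt 1.9.1, aligned them with Bowtie2 2.2.9 to the Ensembl release 84 transcripts of GRCm38, and deposited the expected counts per gene from RSEM 1.2.31, without normalization. The authors also deposited a DESeq2 comparison of the genotypes, with a mean normalized signal, a log2 fold change and its error, a score and p-values; only its gene names were used. Gene positions, exon lengths and overlaps came from the deposited exon annotation.

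Expected counts were rounded to whole numbers (32.9% to 36.0% of values per library were not whole). A gene entered the fit with 10 or more counts in 3 or more libraries, and libraries were scaled by TMM. The genotypes were compared in edgeR 4.0.16 (quasi-likelihood F-test, R 4.3.3, no covariate), with Benjamini-Hochberg adjustment over all tested genes and a threshold of 0.05. The SE was obtained by dividing the size of the log2 difference by the root of the F statistic. For normalized counts, each count was divided by its library's TMM-scaled total and multiplied by the mean of those totals. Differences within a run are log2 ratios of mean normalized counts, unless a fit is named. Totals of 32556304 to 38069151 mean that 3 counts, the limit a count of 0 allows, are 0.0788 to 0.0921 CPM, for counting error only. Levels per length used the union of exons. Similarity between genes used log2 CPM with a prior count of 2. The tests were tried on simulated data.

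Column names give genotype and library number only, so libraries were grouped by genotype, and sex and RNA quality of the pools entered no fit. Pools are labelled as separate samples of 2 animals. In pairs of libraries of the same genotype, chi-square over its degrees of freedom was 9.93 to 70.4, so each counted as 1 replicate. Alternatives were DESeq2 1.42.0, limma-voom (limma 3.58.1), RLE and upper quartile normalization, no filter, a filter on all 7 libraries, each library left out, the run of library numbers as covariate, each run alone, and the longest transcript as length. The clock genes, pathway and marker lists, runs and tests were chosen with earlier results of these data known. Named were the clock genes and the 20 pathway genes given here, *Lhx6*, the 5 genes most similar to *Dbp* and to *Arntl*, and, of other lists, the most abundant or called genes. Other marker genes were named after their values were seen, because they define a cell type, lie at or near 0 or go against their list. Motifs were searched in RefSeq promoter windows of GRCm38.p6, matched by symbol for 9 of 10 clock genes (13 windows) and 16 of 20 pathway genes (21 windows). Some further genes of the clock pathway are not reported here.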

Additional observations from a re-analysis of the deposited data

Results flagged for a closer look

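Of the 30 clock and clock pathway genes whose 4 control libraries were examined, 1 had a library far from the others. *Bhlhe40* had 2138 normalized counts in control 11 and 2649 to 2743 in the other controls, a gap of 0.844 of the whole range, which is above Dixon's 95% critical value for 4 samples. Chance alone marks about 1 in 20 such groups. Control 11 was still above all 3 mutants, and without it *Bhlhe40* kept its call.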

How the results depend on the processing

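Of the 160 refits of clock genes (10 genes under 16 alternatives), 138 kept the direction and the side of the threshold. The clock genes called numbered 3 with the run as a covariate, 5 with libraries 10 to 13 and 0 with libraries 2, 3 and 5, and 0 to 1 with a library left out. Genes called over all numbered 954, and 1731 in DESeq2, 2205 with the run as a covariate, 1922 with libraries 10 to 13, 397 with libraries 2, 3 and 5, and 302 to 971 with a library left out. Other pathway genes called numbered 4, and 5 in DESeq2, 3 with no filter, 6 with the run as a covariate, 5 with libraries 10 to 13, 0 with libraries 2, 3 and 5, and 0 to 3 with a library left out. The cause was not tested.

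Signs turned in some refits, always without a call, and the log2 values given here are the estimates of those fits. With libraries 2, 3 and 5 the values were 0.0072 for *Arntl*, 0.026 for *Nr1d1* and 0.12 for *Arntl2*. With libraries 10 to 13 they were -0.043 for *Clock*, 0.027 for *Bhlhe41*, 0.081 for *Cry1* and 0.016 for *Csnk1e*. With upper quartile normalization *Per2* was 0.0092. With a library left out the range was -0.019 to 0.24 for *Clock*, -0.061 to 0.15 for *Per1*, -0.15 to 0.073 for *Per2*, -0.11 to 0.060 for *Cry1*, -0.057 to 0.014 for *Bhlhe41* and -0.18 to 0.019 for *Rora*.

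The ratio of the highest to the lowest level per length was 5.92 with the longest transcript as length. CACGTG was found in 6.021% of windows when only the bases before the start were searched. No paired analysis was possible because the columns carry no replicate number of the labels. Libraries of pooled animals at 1 age and an hour not given here limit all values to this age and these pools.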
